A study of Microcebus murinus with 8 samples.

Results

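The microRNAs described here are those known as enriched in neurons among the plasma microRNAs of the grey mouse lemur (Microcebus murinus), a small primate. Members were taken by name: mmr-miR-128, mmr-miR-138, mmr-miR-132, mmr-miR-212, mmr-miR-218a and mmr-miR-218b, which are 6 of the 108 rows in each table. The rows mmr-miR-218a and mmr-miR-218b held the same value in every sample and are counted once, as miR-218, which leaves 5 distinct members of 105 distinct rows. The study fed wild-type animals either a vegetable fat-based diet (4 samples, numbered 5 to 8) or a dairy fat-based diet (4 samples, numbered 1 to 4) and sequenced small RNA from their plasma. The sources used here give no age, sex or time on the diet, do not say whether the samples are from separate animals and hold no sample from before the diets. A p-value here therefore sets a difference or correlation against the variation between the 8 samples, and that variation may be technical.

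A microRNA is a short RNA that guides Argonaute proteins to messenger RNAs, which are then translated less or degraded. MiR-128 is among the most abundant microRNAs of mammalian brain, where in mice it restrains neuronal excitability, and it is also present in muscle and blood cells. MiR-132 and miR-212 are processed from one primary transcript, which neuronal activity induces through CREB, and in rodents miR-132 promotes dendrite growth. MiR-138 limits the size of dendritic spines in rat neurons, and miR-218, made from introns of the SLIT2 and SLIT3 genes, is strongly expressed in mouse motor neurons. None of them is made by neurons alone, and from which cells the plasma copies came was not tested. In plasma, release from more cells and release of more copies by each cell cannot be told apart.

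Levels are given in reads per 1000000 reads (RPM) of the 108 listed microRNAs. In each table all 108 values were whole multiples of one step, within 0.01, so the value of 1 read and the number of reads behind each level could be read off. The totals of listed reads ran from 1061434 to 4004131 on vegetable fat and from 1408536 to 3437717 on dairy fat, and 1 read was worth between 0.25 and 0.942 RPM. The vegetable fat samples 8 and 6 and the dairy fat sample 1 had the fewest reads, and the other 5 had 3103305 or more. Intervals on a level are exact 95% Poisson limits and cover counting error only, since it is not given whether reads or unique molecules were counted.

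The 5 members spanned more than 3 orders of magnitude, and miR-128 alone made up most of their reads. Averaged over the 8 samples, miR-128 stood at 3204 ± 775 RPM, miR-138 at 225 ± 185, miR-132 at 16.2 ± 10.2, miR-218 at 7.64 ± 7.06 and miR-212 at 1.36 ± 0.97 (SD, n = 8). By mean level miR-128 ranked 23 and miR-138 ranked 64 of the 108, while miR-132, miR-218 and miR-212 ranked 94, 96 and 105. Together the 5 took between 0.279% and 0.47% of the listed reads in a sample, and miR-128 was 75.0% to 97.6% of that. RPM was not divided by length, because no mature sequences were used here, and microRNAs can differ in how readily they enter a library.

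The order of the levels was the same in 7 of the 8 samples. For each of the 4 neighbouring pairs, the within-sample difference was beyond its spread over the 8 samples (two-sided exact sign-flip permutation test, smallest possible p 0.00781, adjusted over the 4 pairs). The order was taken from the mean levels of these same samples, so the tests describe the gaps and are no separate support for the order. MiR-128 exceeded miR-138 by 4.09 ± 1.23 on the log2(RPM + 1) scale, in 8 of 8 samples (exact permutation adjusted p = 0.0104). MiR-138 exceeded miR-132 by 3.71 ± 0.70, also in 8 of 8 (exact permutation adjusted p = 0.0104). The gap of miR-132 over miR-218 was the narrowest, 0.97 ± 0.90, and it held in 7 of 8 samples (exact permutation adjusted p = 0.0234). The exception was vegetable sample 7, where miR-132 lay below miR-218. MiR-218 exceeded miR-212 by 1.70 ± 0.53 in 8 of 8 samples (exact permutation adjusted p = 0.0104).

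**Figure D1:**
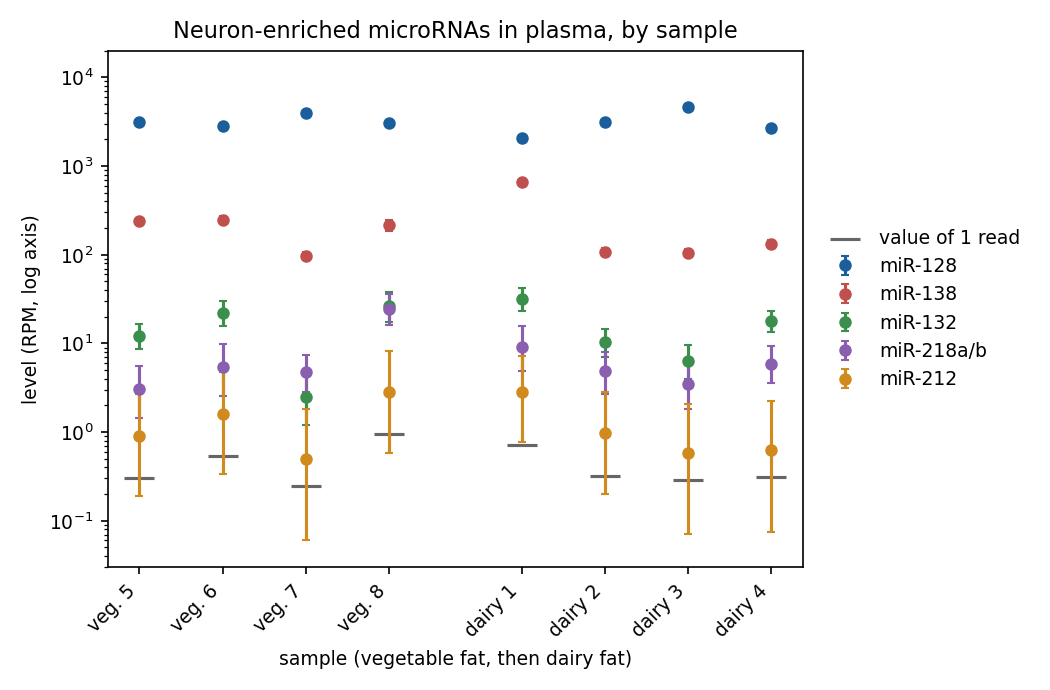
Level of each member in each sample in RPM on a log axis, vegetable fat samples 5 to 8 on the left and dairy fat samples 1 to 4 on the right. Points are single samples, bars are exact 95% Poisson limits and grey dashes are the value of 1 read. MiR-128 lies between 2093 and 4584 RPM, and miR-212 lies within a few reads of the dashes in every sample.

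MiR-128 was measured with by far the most reads. Its level was 3135, 2865, 4012 and 3078 RPM in vegetable samples 5 to 8, against 2093, 3180, 4584 and 2682 RPM in dairy samples 1 to 4. The vegetable fat values all lay inside the range of the dairy fat values, whose lowest was sample 1 and whose highest was sample 3. These levels rest on 2948 to 16066 reads, and the coefficient of variation over the 8 samples was 24.2%, where counting alone would give 1.23%. It was the steadiest of the 5 members.

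MiR-138 had 1 sample far above the rest. It stood at 243, 249.5, 96.9 and 214 RPM in vegetable samples 5 to 8, against 655, 107.9, 104.1 and 131.8 RPM in dairy samples 1 to 4. Dairy sample 1 had several times the level of the other 3 dairy samples, from 922 reads with limits of 613 and 698 RPM, and vegetable sample 7 had the lowest of all. The other vegetable samples lay between that dairy sample and the remaining dairy samples. The coefficient of variation was 82.1%, against 4.07% from counting.

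MiR-132, the activity-regulated member, was listed at 12.2, 22.1, 2.5 and 26.4 RPM in vegetable samples 5 to 8, against 31.9, 10.3, 6.4 and 17.8 RPM in dairy samples 1 to 4. Vegetable sample 7, the deepest library, had the least miR-132, 10 reads, and the other 7 libraries held 22 to 57. The highest levels were in the libraries with the fewest reads in all, dairy sample 1 and vegetable samples 8 and 6. The diets overlapped, with 2 of the 4 vegetable fat samples above the dairy fat median.

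MiR-218 stood at 3.04, 5.39, 4.75 and 24.5 RPM in vegetable samples 5 to 8, against 9.23, 4.83, 3.49 and 5.92 RPM in dairy samples 1 to 4. Vegetable sample 8, the shallowest library, stood apart with 26 reads, and its limits of 16 and 35.9 RPM did not reach the level of any other sample. The remaining 7 libraries held 10 to 19 reads. Because the 2 names share one value, it is not known how much of it belongs to miR-218a or to miR-218b.

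MiR-212 was near the limit of what these libraries can measure. It was listed at 0.913, 1.62, 0.499 and 2.83 RPM in vegetable samples 5 to 8, against 2.84, 0.967, 0.582 and 0.623 RPM in dairy samples 1 to 4. In reads this was 3, 3, 2 and 3 on vegetable fat and 4, 3, 2 and 2 on dairy fat, so 7 of the 8 values were at or under a floor of 3 reads. Its coefficient of variation of 71.8% compares with 50.6% from counting alone, and the exact limits of all 8 values overlapped, so no difference between samples was detectable at this depth. The 4 libraries of each diet summed to 11 reads.

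The question the design puts is whether the source of dietary fat is reflected in these circulating microRNAs, and no member was called different between the diets. By limma on log2(RPM + 1), adjusted over all microRNAs tested, 0 of the 5 members were called, and 0 of the 104 tested microRNAs (0%) were. No microRNA had an unadjusted p under 0.05 in that fit. Of the 5 estimates, 4 were above 0 and 1 was below, with a median of 0.11, beside a median of 0.07 and 64 above and 40 below over the 104. The values below are vegetable fat minus dairy fat differences of log2 levels, with 95% confidence intervals.

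The interval of miR-128 was the tightest of the members. It averaged 3272 ± 507 RPM on vegetable fat and 3135 ± 1063 on dairy fat (SD, n = 4 each), a log2 difference of 0.11 with an interval from −0.50 to 0.72 (limma adjusted p = 0.999). On a fold scale the interval ran from 0.705 to 1.65, so a change beyond 1.65-fold upward lay outside it. MiR-138 averaged 201 ± 71.0 RPM on vegetable fat and 249.6 ± 270.3 on dairy fat, but its log2 difference was 0.09 (−1.24 to 1.42, limma adjusted p = 0.999). The means and the log2 estimate had opposite directions, and without dairy sample 1 the log2 difference was 0.72.

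For miR-138, miR-132 and miR-218 the intervals reached past 2-fold in both directions. MiR-132 averaged 15.8 ± 10.7 RPM on vegetable fat and 16.6 ± 11.3 on dairy fat, with a log2 difference of −0.21 (−1.84 to 1.43, limma adjusted p = 0.999). MiR-218 averaged 9.42 ± 10.1 RPM on vegetable fat and 5.87 ± 2.45 on dairy fat, with a difference of 0.26 (−1.13 to 1.64, limma adjusted p = 0.999). Without vegetable sample 8 the miR-218 difference was −0.31. MiR-212 did not reach the minimum of 1 RPM in at least 4 samples, and in the fit of all 108 its difference was 0.14 (−0.87 to 1.15, limma adjusted p = 0.999), with an exact permutation p of 0.83 over the 70 assignments of samples. That estimate rests on 11 reads a diet and depends on the pseudocount. With upper quartile scaling the median of all microRNAs moved to −0.19, and miR-128 and miR-138 were at −0.15 and −0.17. Relative to the median of all, 4 members lay above and 1 below under each of the 4 scalings tried. A scaling moves all microRNAs of a sample by the same factor, so these places could hardly change and are no check.

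**Figure D2:**
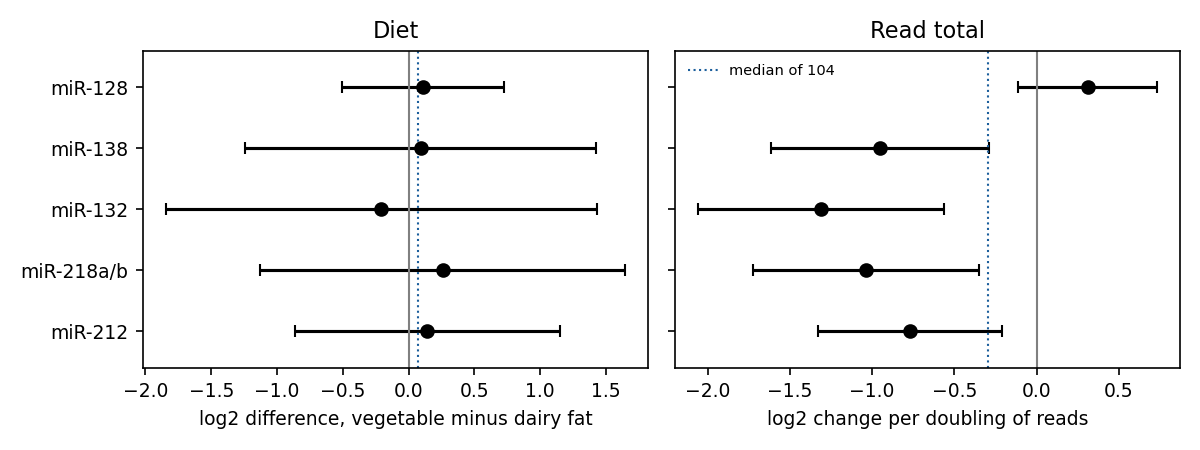
Left, log2 difference of each member between vegetable fat and dairy fat, and right, its log2 change for each doubling of the total of listed reads. Points are limma estimates over 8 samples, bars are 95% confidence intervals, and the dotted line is the median over the 104 microRNAs tested. All 5 diet intervals include 0, and 4 of the 5 slopes lie below 0 with intervals that do not include it.

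MiR-132 and miR-212 come from one transcript, and miR-132 was the far more abundant in plasma. There were 13.3, 13.7, 5 and 9.33 reads of miR-132 for each read of miR-212 in vegetable samples 5 to 8, against 11.2, 10.7, 11 and 28.5 in dairy samples 1 to 4. Vegetable sample 7 had the lowest ratio and dairy sample 4 the highest, and the exact limits of all 8 overlapped, since each ratio has only 2 to 4 reads of miR-212 below it. In vegetable sample 7 the limits were 1.07 and 46.9, and in dairy sample 4 they were 7.54 and 241 (exact Clopper-Pearson, 95%).

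Summed over libraries, the ratio was 10.8 on vegetable fat (119 to 11 reads, limits 5.83 and 22.3) and 14.2 on dairy fat (156 to 11 reads, limits 7.71 and 29.0). The log2 ratio, with 0.5 reads added to each, averaged 3.05 ± 0.70 on vegetable fat and 3.56 ± 0.65 on dairy fat (SD, n = 4 each). The difference of −0.51 was smaller than the spread within either diet (two-sided exact permutation p = 0.486, smallest possible 0.0286). Over all 8 samples miR-132 had 12.5 reads for each read of miR-212, with limits of 8.09 and 20.3. No relation of the log2 ratio to the total of listed reads was detectable with so few reads (Pearson r = −0.06, exact permutation p = 0.873, and Spearman rho = −0.19, exact permutation p = 0.665, over 8 samples).

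**Figure D3:**
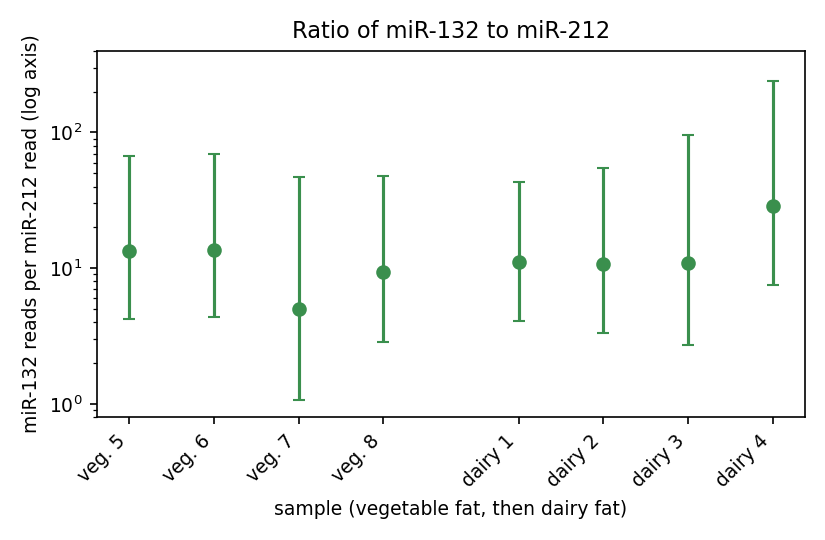
Reads of miR-132 for each read of miR-212 in each sample on a log axis, vegetable fat samples 5 to 8 on the left and dairy fat samples 1 to 4 on the right. Points are the ratio of implied reads and bars are exact 95% Clopper-Pearson limits, which overlap in all 8 samples.

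In RPM as deposited, the levels of the 4 scarcer members fell with the total of listed reads. In a limma fit with diet as a term, miR-138, miR-132 and miR-218 were called downward. Of the 104 microRNAs tested there, 36 were called at all (34.6%), 34 of them downward (32.7%) and 2 upward (1.92%). Both names of an identical pair count there, and with copies counted once 35 were called. MiR-212 was called downward in the fit of all, where 37 of 108 were called (34.3%). With 2 to 4 reads in every library, its RPM follows the value of 1 read, so that call was nearly fixed in advance. The split of all calls into downward and upward depended on scaling, with 20 downward and 6 upward by upper quartile factors, 13 and 11 by median-of-ratios factors and 15 and 12 by trimmed mean factors. MiR-132 fell by 1.31 on the log2 scale for each doubling of the total (interval −2.06 to −0.56, limma adjusted p = 0.00867). The slopes were −1.04 for miR-218 (−1.72 to −0.35, limma adjusted p = 0.0181), −0.95 for miR-138 (−1.61 to −0.29, limma adjusted p = 0.023) and, in the fit of all 108, −0.77 for miR-212 (−1.33 to −0.21, limma adjusted p = 0.0298). That of miR-128 was 0.31 (−0.11 to 0.73, limma adjusted p = 0.26), which did not pass. At levels well above the added 1 RPM, a slope near −1 means that the number of reads was about the same whatever the total. Near 1 RPM the added value flattens the slope, so that of miR-212 cannot be read this way. It was −0.98 with 0.5 RPM added and −0.30 with 5 RPM added.

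The median slope of the 104 was −0.30, and calls differed with the level. Of the 9 tested rows with a mean under 10 RPM, 6 were called downward, with a median slope of −1.04. Both names of miR-218 are among the 9 and the 6, and that median is the slope of miR-218 itself. From 10 to 100 RPM, where miR-132 belongs, 10 of 24 were called downward (median −0.60). From 100 to 1000 RPM, where miR-138 belongs, 13 of 33 were called downward and 1 upward (median −0.26). Of the 26 from 1000 to 10000 RPM, where miR-128 belongs, 4 were called downward and 1 upward (median −0.24). Of the 12 above that, 1 was called downward and 0 upward (median 0.09). MiR-126, an endothelial and platelet microRNA at a much higher level, also had a slope of −1.02 (limma adjusted p = 0.00478), whereas miR-486 of red cells and miR-191 had slopes of −0.27 and −0.08. Red cell and platelet markers differed among themselves. Of the other red cell microRNAs listed, miR-15a was called upward (0.825, limma adjusted p = 0.0138), and miR-92a and miR-182 were not called (−0.12 and −0.195). Of the other platelet and myeloid ones, miR-24 was called downward (−0.69, limma adjusted p = 0.0181), and miR-197 and miR-21 were not called (−0.53 and −0.475).

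The reads themselves were compared with the total over its 3.77-fold range. MiR-128 reads rose with it (Pearson r = 0.955 and Spearman rho = 0.95 between log2 reads and log2 total, exact permutation adjusted p = 0.00335 and 0.0057 over 5 members). Without vegetable sample 8 and dairy sample 1, the farthest from the median total, r was 0.91 (exact permutation p = 0.00694, n = 6). Implied reads are the level times the total, so reads of a microRNA with a fairly steady share are nearly bound to rise with it. The values of miR-128 are therefore a description, and the microRNAs other than the members were not compared in this way. For miR-138, miR-132, miR-218 and miR-212 the r of reads with the total was 0.06, −0.34, −0.24 and −0.69 (rho 0.02, −0.45, −0.17 and −0.76), and none passed (smallest exact permutation adjusted p = 0.125 by r and 0.0893 by rho). Without the same 2 samples these r values were −0.11, −0.54, 0.58 and −0.59.

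On the RPM scale, the r of the log2 level with the log2 total was 0.58 for miR-128, −0.71 for miR-138, −0.81 for miR-132, −0.865 for miR-218 and −0.97 for miR-212 (rho 0.69, −0.71, −0.905, −0.83 and −0.95). The last 3 passed by both measures (exact permutation adjusted p = 0.0255, 0.0122 and 0.00124 by r). Without vegetable sample 8 and dairy sample 1, r was −0.77 for miR-132, −0.35 for miR-218 and −0.93 for miR-212 (exact permutation p = 0.0958, 0.558 and 0.00694, n = 6), so for miR-218 the relation did not hold without them. In the fit with diet, the slope of miR-218 was −0.57 without vegetable sample 8 alone and −1.20 without dairy sample 1 alone, beside −1.04 with all samples. MiR-212 held 2 to 4 reads in every library, so its RPM follows the value of 1 read.

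The slopes depended on scaling, and some on a single library. With median-of-ratios scaling, which moved the median slope of all microRNAs to 0.03, none of the 4 scarcer members passed (−0.60 for miR-138, −0.99 for miR-132, −0.72 for miR-218 and −0.56 for miR-212, limma adjusted p from 0.0532 to 0.133), and miR-128 rose by 0.66 (limma adjusted p = 0.0312). With upper quartile or trimmed mean scaling miR-132 was the only scarce member that passed (limma adjusted p = 0.0413 and 0.0482). All 4 stayed below the median of all microRNAs, and miR-128 above it, under each of the 4 scalings. Because a scaling moves all microRNAs of a sample by the same factor, these places could hardly change and are no check. Without dairy sample 1 the slope of miR-138 was −0.40 (limma adjusted p = 0.52), and without vegetable sample 8 that of miR-218 was −0.57 (limma adjusted p = 0.297) and that of miR-138 was −1.65. Other calls were lost while the slope moved less. The slope of miR-138 was −0.91 without dairy sample 2 and −0.88 without vegetable sample 7 (limma adjusted p = 0.0586 and 0.0598). That of miR-132 was −1.34 without dairy sample 1 and −0.94 without vegetable sample 7 (limma adjusted p = 0.0587 and 0.0912). That of miR-218 was −1.20 without dairy sample 1 (limma adjusted p = 0.0587). That of miR-212 lay between −0.68 and −0.87 without dairy samples 1 or 3 or vegetable samples 5, 7 or 8 (limma adjusted p from 0.0593 to 0.196). The call of miR-138 was also lost in limma without its trend and robust settings (adjusted p = 0.0508), and that of miR-212 with a pseudocount of 5 RPM (−0.30, limma adjusted p = 0.0894). Both diets held shallow and deep libraries, and with the total as a covariate the diet differences were 0.18 for miR-128, −0.12 for miR-138, −0.50 for miR-132, 0.025 for miR-218 and −0.03 for miR-212, none of them called.

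**Figure D4:**
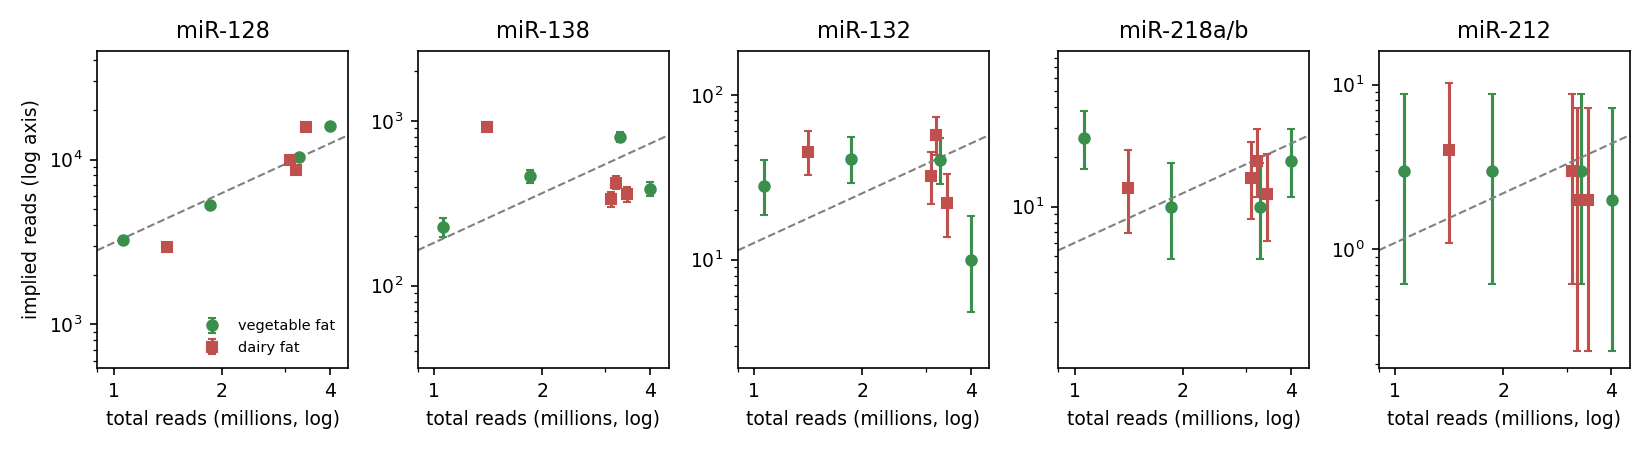
Implied reads of each member against the total of listed reads, both on log axes, with circles for vegetable fat and squares for dairy fat. Bars are exact 95% Poisson limits, and the dashed line is what a constant share of the total would give. MiR-128 follows it, while over all 8 samples the reads of the other 4 members do not rise along it. For miR-218 this depends on the shallow libraries, since r of its reads with the total was 0.58 without vegetable sample 8 and dairy sample 1.

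The levels of the members were correlated over the 8 samples. All 4 correlations with miR-128 were negative and all 6 among the other members were positive, and 6 of the 10 passed by Pearson r of log2(RPM + 1), adjusted over the 10 pairs, as did 6 by Spearman rho. Of the 6 passing by r, 3 include miR-212, whose RPM follows the value of 1 read. Its correlations cannot be told apart from a relation of the other member to the total and are given as a description. MiR-128 correlated with miR-132 at r = −0.83 (rho = −0.88; exact permutation p = 0.0111 and 0.00724, adjusted p = 0.0351 and 0.0241). It correlated with miR-138 at r = −0.81 (rho = −0.81; exact permutation p = 0.0175 and 0.0218, adjusted p = 0.0351 and 0.0436).

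The transcript partners miR-132 and miR-212 correlated at r = 0.81 (rho = 0.905; exact permutation p = 0.0136 and 0.00456, adjusted p = 0.0351 and 0.0241). MiR-138 correlated with miR-212 at r = 0.81 (rho = 0.83; exact permutation adjusted p = 0.0351 and 0.0384) and with miR-132 at r = 0.77 (rho = 0.88; exact permutation adjusted p = 0.0415 and 0.0241). MiR-218 correlated with miR-212 at r = 0.79 (rho = 0.69; exact permutation adjusted p = 0.0351 and 0.0771). The other 4 pairs, 3 of which include miR-218, had r between −0.66 and 0.58 and did not pass by Pearson r, and miR-132 with miR-218 passed by Spearman rho alone (0.79, exact permutation adjusted p = 0.0465).

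These samples share more than their microRNAs: the 4 scarcer members also moved with the read total, as given above. After the total was removed from each member, 0 of the 10 pairs passed (smallest permutation adjusted p = 0.169, and 2 pairs had an unadjusted p under 0.05 by Pearson r). The permutation treats residuals as exchangeable, so its p-values here are approximate and may be too small. The r of miR-132 with miR-212 was then 0.15 (permutation p = 0.725), and that of miR-218 with miR-212, miR-138 and miR-132 was −0.48, −0.68 and −0.41. The r of miR-128 with miR-132 and miR-138 was −0.75 and −0.68 (permutation p = 0.0325 and 0.0582, adjusted p = 0.169 for both), and that of miR-138 with miR-212 was 0.74 (permutation p = 0.0393, adjusted p = 0.169).

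When the 2 samples farthest from the median of the first member were left out, only the pair of miR-128 and miR-132 still had a p under 0.05 (r = −0.88, exact permutation p = 0.0375, n = 6). The r of miR-128 with miR-138 was then −0.50, that of miR-138 with miR-212 was 0.62 and with miR-132 was 0.68, that of miR-132 with miR-212 was 0.82, and that of miR-218 with miR-212 was 0.18. With 1 sample left out, 0 of 10 pairs passed without dairy samples 1, 2 or 3 or vegetable samples 6, 7 or 8, and 6 passed without dairy sample 4 or vegetable sample 5, while r itself moved less. It ran from −0.88 to −0.79 for miR-128 with miR-132, from −0.905 to −0.60 for miR-128 with miR-138 and from 0.73 to 0.825 for miR-138 with miR-132. For the pairs of miR-212 it ran from 0.75 to 0.92 with miR-132, from 0.69 to 0.925 with miR-138 and from 0.71 to 0.82 with miR-218. With median-of-ratios scaling the pairs that passed were those of miR-128 with miR-132, miR-138 and miR-212 (r = −0.89, −0.83 and −0.83, exact permutation adjusted p = 0.0181, 0.0331 and 0.0331). No pair among the 4 scarcer members passed there, and the 4 that had passed before had r from 0.62 to 0.72 (exact permutation adjusted p from 0.107 to 0.134). Each diet has 4 samples, too few for a correlation within a diet.

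**Figure D5:**
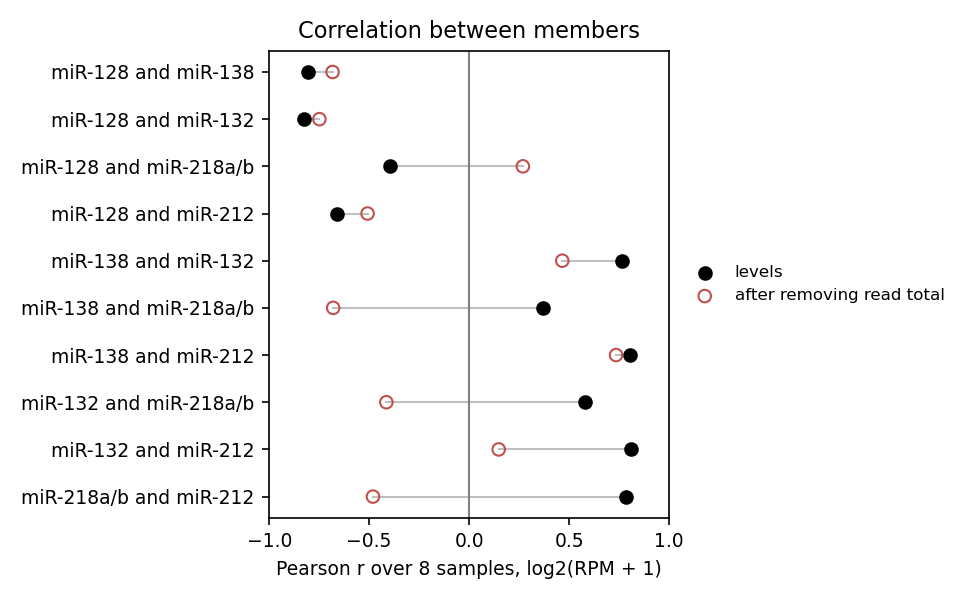
Pearson r over the 8 samples for each of the 10 pairs of members, from log2(RPM + 1). Filled points are the levels as deposited and open points are the same after the log2 total of listed reads was removed; the 4 pairs with miR-128 start below 0, and the 4 pairs with miR-218 change sign.

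For each member the 3 most alike microRNAs are given. Of 100 other distinct microRNAs with Pearson r of log2(RPM + 1) over 8 samples as the measure, miR-107, miR-15a and miR-103a lay closest to miR-128 (r = 0.96, 0.93 and 0.92). MiR-502b, miR-500 and miR-151 lay closest to miR-138 (0.99, 0.96 and 0.94), and miR-10a, let-7c and miR-214 lay closest to miR-132 (0.98, 0.97 and 0.97). Closest to miR-212 were miR-23b, miR-24 and miR-27b (0.96, 0.94 and 0.94), and to miR-218 miR-27b, miR-126 and miR-199 (0.80, 0.78 and 0.78). These are the highest of 100 values each and are given without a test.

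Of a further 32 names known as enriched in neurons, only miR-708 was among the 108, and 31 are not analysed here, nor are the glial miR-219 and miR-338. MiR-708 stood at 3.96, 10.2, 1.75 and 12.2 RPM in vegetable samples 5 to 8, against 12.1, 2.26, 0.873 and 6.54 RPM in dairy samples 1 to 4. It too was highest in the 3 shallow libraries and was called for its slope on the total (−1.30, limma adjusted p = 0.00831) but not for diet (0.44, −1.22 to 2.09, limma adjusted p = 0.999). The red cell microRNAs, and those of platelets and myeloid cells, outweighed the 5 members in every sample, where the members summed to 2792 to 4698 RPM. The endothelial microRNAs did not do so in every sample. The 4 red cell microRNAs listed, of 11 in that list, summed to 67361 to 117946 RPM on vegetable fat and 61365 to 99205 RPM on dairy fat. The 3 endothelial ones, of 3, summed to 2345 to 12171 RPM on vegetable fat and 2518 to 9112 RPM on dairy fat, and the 4 of 6 for platelets and myeloid cells, which share miR-126 with them, to 6603 to 17590 RPM on vegetable fat and 5511 to 16198 RPM on dairy fat. None of the 7 names of the muscle list or the 4 of the liver list is analysed here, and the part of any of these cells in the levels of the members was not tested.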

How the data were processed

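Per the labels' protocols, RNA was isolated from plasma with miRNeasy Micro and made into libraries with QIAseq miRNA reagents. The submitters' processing notes name cutadapt 3.4. Aligner, counting, reference set, use of molecular identifiers and filters were not stated in the labels or headers. Deposited values are RPM relative to the 108 listed microRNAs, since each table sums to 1000000, and names carry no arm (5p or 3p). Headers of the vegetable fat tables number samples differently from the titles, which were followed.

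Implied reads came from the step of each table. Its low values are too few for a count model, so the planned edgeR and DESeq2 alternatives were not run. Levels were compared with limma 3.58.1 (R 4.3.3; trend and robust settings) on log2(RPM + 1) for the 104 microRNAs that reached 1 RPM in 4 samples, adjusted by Benjamini-Hochberg over all of them, with a threshold of 0.05. Permutation tests (Python 3.11.15) were two-sided and exact, except that those on values with the total removed are approximate. The code was tested on simulated data.

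Named are the members, the 3 most alike microRNAs of each, listed markers, miR-486, miR-126 and miR-191. The members and lists were chosen with earlier results of these data known. The sample numbers pair no animals across diets.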

Additional observations from a re-analysis of the deposited data

Results flagged for a closer look

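Of 16 groups of 4 samples examined, 5 held a sample far from the other 3. For independent, normally distributed values chance gives such a gap in about 1 in 20 groups (0.8 of 16). The groups here share samples and reads, miR-212 RPM follows the total, and the values are not known to be normal. The 5 are therefore not read as an excess over chance. On vegetable fat, sample 8, the shallowest library, had 24.5 RPM of miR-218, and the other 3 had 3.04 to 5.39 RPM. On dairy fat, sample 1 had 655 RPM of miR-138 (922 reads), where the other 3 had 104.1 to 131.8 RPM. The same dairy sample had 2.84 RPM of miR-212, from 4 reads, where the others had 0.582 to 0.967 RPM. Its total of listed reads was 1408536, and the others had 3103305 to 3437717. Dairy sample 4 had a log2 ratio of miR-132 to miR-212 of 4.52, from 57 and 2 reads, and the other dairy samples had 3.17 to 3.34.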

How the results depend on the processing

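No member was called for diet in any alternative run, and the count of all microRNAs called for diet was 0 in each of 19 (smallest limma adjusted p 0.56). Signs of uncalled diet differences changed as follows. Upper quartile factors gave −0.15 for miR-128 and −0.17 for miR-138. The read total as a covariate gave −0.12 for miR-138 and −0.031 for miR-212. Without the samples of most extreme total (dairy 1 and vegetable 8, chosen after seeing the data), miR-128 was −0.039 and miR-218 −0.096. With 1 sample left out the ranges were −0.065 to 0.31 for miR-128, −0.16 to 0.72 for miR-138, −0.56 to 0.43 for miR-132, −0.31 to 0.58 for miR-218 and −0.10 to 0.43 for miR-212. The ratio difference stayed below 0 in 10 of 10 alternatives (−0.69 to −0.19), none past the threshold. All 4 neighbours in the order passed in 10 of 10, with the order taken from the same samples.

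MicroRNAs called for a slope on the total numbered 15 without dairy sample 1, 21 without vegetable sample 7, up to 42 without vegetable sample 5, and 19 without the samples of most extreme total. In that fit miR-132 alone of the members was called (−2.18, limma adjusted p = 0.0341). Correlated pairs past the threshold numbered 3 with median-of-ratios factors, all with miR-128, 0 after the read total was removed and 0 to 6 with 1 sample left out. Removing the total gave 0.27 for miR-128 with miR-218, and −0.68, −0.41 and −0.48 for miR-218 with miR-138, miR-132 and miR-212. Where not given above, the cause of a change was not tested. No paired analysis was possible because no number is shared by a vegetable fat and a dairy fat sample. Counting error was largest for miR-212, at 2 to 4 reads in shallow and deep libraries alike.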
